A study of Mus musculus with 6 samples.

Results

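A set of 10 genes of prolactin and interleukin-6 family signalling was examined in 393P cells: the ligands Prl and Lif, the receptor subunits Prlr, Cntfr, Il6ra, Il11ra1, Lifr, Osmr and Il6st, and the inhibitor Socs3. They were chosen by symbol from 24214 features, with earlier results of this same contrast known, so their own differences are a description. No p-value is given for them, and where one is said to be called, which means past the threshold of the fit over all genes, that is part of the description and no independent evidence. All 10 of 10 were listed in every sample, and 10 passed the filter on low counts that left 13892 genes in the fit.

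393P is an epithelial cell line from a lung adenocarcinoma (LUAD) of the mouse, and its strain is given as C57BL/6. 393P_vector cells carried an empty vector and 393P_ZEB1 cells an expression vector for ZEB1, a repressor that binds E-boxes and drives epithelial-to-mesenchymal transition (EMT). All were grown in RPMI-1640 with serum, and in the study such transfectants were stably selected with a drug. Total RNA of 3 samples of each went into SOLiD sequencing libraries, with no label saying that the 3 were separate cultures or transfections, so any p-value here measures the spread between these samples, which may be technical.

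Prolactin is a pituitary hormone that acts on the mammary gland through the prolactin receptor, JAK2 and STAT5. The interleukin-6 family (IL-6, IL-11, LIF, oncostatin M and CNTF among them) signals through receptors that share the subunit gp130, the product of Il6st, to JAK1 and STAT3, with SOCS3 as the inducible brake. Each cytokine adds its own subunits: IL-6R or IL-11R for gp130 pairs, LIFR for LIF, OSMR for oncostatin M, and CNTFR together with LIFR for CNTF.

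Total counts ran from 57844355 to 79158012 in the 393P_vector samples and from 54442450 to 61251074 in the 393P_ZEB1 samples. Levels are given as CPM, that is counts relative to the library size after TMM scaling, in which 3 counts were worth between 0.0361 and 0.0561. Zeb1 itself stood at 21.2, 22.0 and 21.4 CPM in 393P_vector and at 54.9, 48.9 and 51.3 CPM in 393P_ZEB1, a count that may include reads of the transgene. 393P_vector replicate 3 stood apart, with 6.89% and 7.75% of tested genes differing by at least 2-fold from the other two, whereas replicates 1 and 2 differed in 0.90%. The summed counts of 4 Y-linked genes were 5861 to 10713 in 393P_vector and 30 to 38 in 393P_ZEB1, a difference between the cell populations that cannot be told apart from the ZEB1 condition. Summed over 7 epithelial markers, CPM was 4713 to 5374 in 393P_vector and 2746 to 3043 in 393P_ZEB1, a sum carried by the keratins Krt8, Krt18 and Krt19. The median log2 fold change over the 7 was -4.09, with Cldn4 at -8.40, Esrp1 at -7.75 and Epcam at -6.53, and 6 of the 7 were called lower (edgeR's quasi-likelihood test with Benjamini-Hochberg adjustment). Of 6 lung alveolar and airway markers, Scgb1a1 had 0 counts in every sample, Sftpc, Sftpa1, Sftpb and Nkx2-1 had at most 5, and the ciliated-cell factor Foxj1 had 150 to 247 counts in 393P_vector and 5 to 16 in 393P_ZEB1. Markers of other cell types were low, at sums of 2.30 to 3.14 CPM against 1.35 to 1.66 for 6 fibroblast genes, 2.11 to 4.31 against 1.42 to 1.70 for 6 immune genes and 2.26 to 2.46 against 0.630 to 0.868 for 4 endothelial genes. In bulk RNA, fewer expressing cells and less RNA per cell cannot be told apart.

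Prl and Cntfr were the members with the greatest differences. Both were readily counted in 393P_vector and close to the counting floor in 393P_ZEB1. Lifr, Il11ra1, Osmr and Lif were higher in 393P_ZEB1, and Il6st was lower by a smaller amount. Of the 10, 7 were called at an adjusted p below 0.05, 4 higher and 3 lower, beside 18.3% of all tested genes called higher and 19.3% called lower. In 9 of the 10 the 3 samples of one group lay entirely on one side of those of the other, 5 with 393P_ZEB1 above and 4 with it below, where 26.3% and 26.5% of all tested genes did so. As the genes were selected on this contrast, nothing is read from these counts. Leaving out 393P_ZEB1 replicate 1 ended the calls of Il11ra1 and Osmr, which left 2 higher, and the call of Osmr also ended without 393P_ZEB1 replicate 2, 393P_ZEB1 replicate 3 or 393P_vector replicate 2, with the replicate number as a block, and with no filter on low counts.

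**Figure D1:**
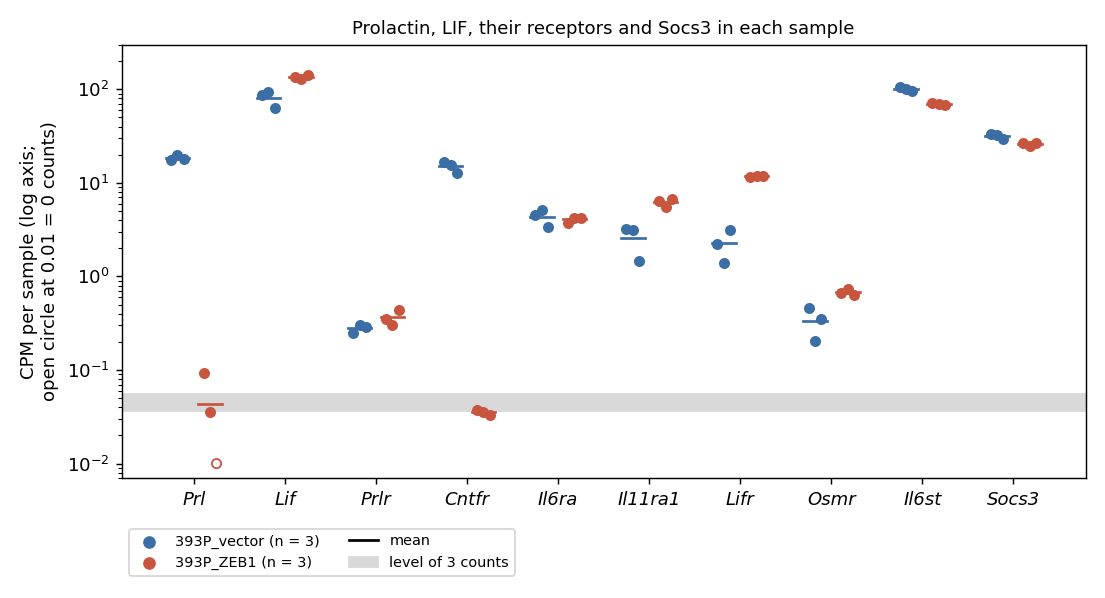
CPM of each gene in each of the 6 samples on a log axis, 393P_vector in blue and 393P_ZEB1 in red, with bars at the group means and a grey band at the level of 3 counts. Prl and Cntfr lie between 12.9 and 19.7 CPM in 393P_vector and near or below the grey band in 393P_ZEB1, apart from Prl in 393P_ZEB1 replicate 1, whereas Lifr is lower in all 393P_vector samples than in any 393P_ZEB1 sample.

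Among the ligands, Prl encodes prolactin and lies on chromosome 13 of GRCm38, plus strand, from 27057570 to 27065203, with 6 exons. It had 995, 1159 and 1494 counts in 393P_vector replicates 1 to 3, and 5, 2 and 0 counts in 393P_ZEB1 replicates 1 to 3. In CPM these were 17.6, 19.7 and 17.98 against 0.0935, 0.0360 and 0, with means of 18.4 ± 1.13 and 0.0432 ± 0.0471 (SD, n = 3 each). The 393P_vector samples were close to each other and far from all 393P_ZEB1 samples, among which replicate 1 alone exceeded 3 counts. Pooled over the libraries, the ratio of 393P_vector to 393P_ZEB1 was 447, with an exact 95% interval (Clopper-Pearson) of 217 to 1112 that covers counting error only. The fitted log2 fold change was -8.73 (SE 0.45). For a gene with so few counts in one group the fitted value depends on the prior count, and without 393P_ZEB1 replicate 1 it was -9.90. Reads were spread along the gene, with more than 10 reads on 5 of 6 exons in each 393P_vector sample and on 0 exons in each 393P_ZEB1 sample.

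Prolactin is the defining hormone of pituitary lactotrophs, where the factor POU1F1 (Pit-1) activates it, so a list of 7 other pituitary genes was read beside it. No pituitary gene exceeded 14 counts in any sample. Their summed level was 0.204 to 0.349 CPM in 393P_vector and 0.311 to 0.396 CPM in 393P_ZEB1. Pou1f1 had 8, 4 and 14 counts in 393P_vector and 11, 14 and 8 in 393P_ZEB1, and growth hormone (Gh) had 0 to 5 counts. Tshb and Cga, which encode hormone subunits, were at 0 or 1 count in every sample.

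The 250 bases before the RefSeq start of Prl, on the plus strand at chr13:27057320-27057569 of GRCm38.p6, are shown because Prl and Cntfr had the largest differences of the 10. Which of the pair differed more was not settled, since the fitted values lay within their standard errors and the order turned without 393P_vector replicate 3, 393P_ZEB1 replicate 2 or 393P_ZEB1 replicate 3. Capitals mark the POU1F1 core TATNCAT on either strand, found with its first base 148 and 47 bases before the start.
Prl: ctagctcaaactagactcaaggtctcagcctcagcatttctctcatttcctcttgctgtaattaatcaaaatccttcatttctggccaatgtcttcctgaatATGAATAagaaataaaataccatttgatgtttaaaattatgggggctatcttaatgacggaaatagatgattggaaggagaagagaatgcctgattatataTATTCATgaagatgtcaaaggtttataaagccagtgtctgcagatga
The window held 0 matches to the E-box CAGGTG bound by ZEB1 and 0 matches to the STAT motif TTCNNNGAA, both searched on both strands. It lies within the antisense gene Gm47888, annotated from 26968491 to 27058022, which also overlaps the first bases of Prl, and reads from that overlap cannot be assigned to a strand because the strand setting of the counting is not given in the sources used here. Over all 32851 RefSeq windows of this length, 17.2% held CAGGTG, 7.92% TATNCAT and 7.02% TTCNNNGAA. Among the members, windows were found for 10 of 10, with 1 to 6 windows each. Of these 19 windows, 5 held CAGGTG, 3 TATNCAT and 2 TTCNNNGAA, in 5, 3 and 2 members. Only the counts of windows are in the same unit as the shares over all windows, and nothing is read from so few. A match says that the letters are present, not that a factor binds there.

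Prl is followed on chromosome 13 by an array of related genes, which encode the prolactin-like hormones of the placenta and were listed after their values had been seen. The array held 22 genes, from 36.6 to 1085 kb after Prl. None was tested, since 0 of the 22 passed the filter, and the highest count of any of them in any sample was 11. Summed over the array, counts were 22 to 65 per sample in 393P_vector and 15 to 29 in 393P_ZEB1. No gene of the array thus had counts near those of Prl in 393P_vector. How reads shared between related genes were counted is not given in the sources used here, so low counts may miss such reads. No tested gene lay within 1 Mb of Prl. Elsewhere on the chromosome, Prl2c3 and Prl2c4 overlap and had identical counts, 20, 27 and 79 in 393P_vector and 21, 28 and 38 in 393P_ZEB1, so their reads cannot be assigned to one of them.

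**Figure D2:**
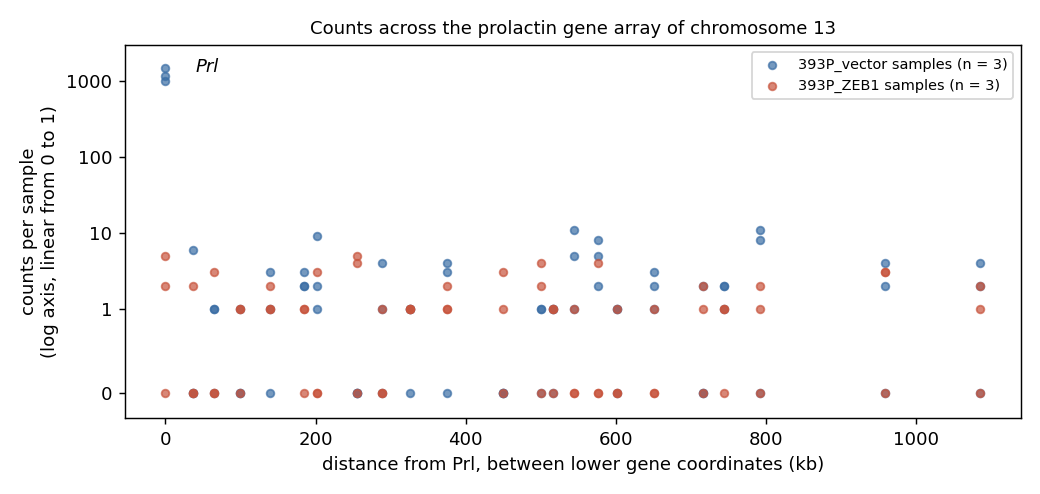
Counts in each sample for Prl and the 22 prolactin family genes after it, against the distance from Prl in kb, with 393P_vector in blue and 393P_ZEB1 in red on an axis that is logarithmic above 1 and linear from 0 to 1. Prl in 393P_vector reaches 995 to 1494 counts, and no other gene of the array passes 11.

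Lif encodes leukaemia inhibitory factor, which signals through LIFR and gp130 (chromosome 11, plus strand, 4257568 to 4272514). It was at 87.1, 92.4 and 63.8 CPM in 393P_vector and at 135, 128 and 143 CPM in 393P_ZEB1. All 393P_ZEB1 samples were above all 393P_vector samples, of which replicate 3 was the lowest. The means were 81.1 ± 15.2 and 135 ± 7.71 CPM, and the log2 fold change was 0.74 (SE 0.15), or 0.59 without 393P_vector replicate 3.

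Prlr, the prolactin receptor (chromosome 15, plus strand, 10177238 to 10349180), had 14, 18 and 24 counts in 393P_vector and 19, 17 and 27 in 393P_ZEB1. At 0.247, 0.306 and 0.289 against 0.355, 0.306 and 0.442 CPM, the groups were separated only beyond the third digit, and the difference was not called. The log2 fold change was 0.39 (SE 0.28). The receptor thus had at most 27 counts in every sample of both groups, also where Prl had 995 or more.

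Cntfr encodes the CNTF receptor, a subunit anchored to the membrane by a lipid that has no intracellular part of its own (chromosome 4, minus strand, 41657498 to 41697091, 12 exons). It had 952, 916 and 1070 counts in 393P_vector and 2 counts in each 393P_ZEB1 sample. These were 16.8, 15.6 and 12.9 CPM against 0.0374, 0.0360 and 0.0328 CPM, with means of 15.1 ± 2.01 and 0.0354 ± 0.00237. Every 393P_ZEB1 sample was thus below the level of 3 counts, and no 393P_vector sample was near it. The pooled ratio of 393P_vector to 393P_ZEB1 was 420, with an exact 95% interval of 193 to 1144 for counting error alone, and the fitted log2 fold change was -8.66 (SE 0.25). More than 10 reads fell on 9, 8 and 9 of its exons in 393P_vector and on 0 exons in each 393P_ZEB1 sample.

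Of the 6 Cntfr windows in the RefSeq set, 1 held CAGGTG and is shown for that reason. It covers the 250 bases before a start inside the annotated gene, at chr4:41689181-41689430 of GRCm38.p6 on the minus strand, and no annotated exon overlaps it. Capitals mark the E-box, whose first base is 107 bases before that start.
Cntfr: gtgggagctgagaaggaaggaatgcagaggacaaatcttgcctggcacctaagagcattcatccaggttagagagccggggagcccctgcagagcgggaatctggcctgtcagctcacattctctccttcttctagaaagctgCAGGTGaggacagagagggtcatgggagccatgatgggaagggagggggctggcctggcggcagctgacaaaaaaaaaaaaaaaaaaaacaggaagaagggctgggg
The other 5 windows, at 41695454 to 41696287, held no CAGGTG. The deposited counts are per gene, so use of this start in 393P cells was not measured.

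The subunits that bind IL-6 and IL-11 went different ways. Il6ra (chromosome 3, minus strand, 89869324 to 89913162) was at 4.49, 5.17 and 3.33 CPM in 393P_vector and at 3.70, 4.23 and 4.26 CPM in 393P_ZEB1. These groups overlapped, the only ones among the 10 genes to do so, and the log2 fold change was -0.09 (SE 0.20). Il11ra1, the IL-11 receptor (chromosome 4, plus strand, 41760443 to 41769473), was at 3.20, 3.13 and 1.47 CPM in 393P_vector and at 6.45, 5.49 and 6.65 CPM in 393P_ZEB1. Its groups did not overlap, 393P_vector replicate 3 was the lowest sample, and the log2 fold change of 1.26 (SE 0.30) was 0.97 without it. Mice carry near-identical Il11ra2 copies that can share reads with Il11ra1, and the one with the most counts had at most 7 in a sample. How shared reads were counted is not given in the sources used here, so such counts do not show how many were shared.

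The signalling subunits that pair with gp130 were higher in 393P_ZEB1. Lifr, the LIF receptor used by LIF, CNTF and cardiotrophin-1 (chromosome 15, plus strand, 7129572 to 7197489), was at 2.23, 1.39 and 3.13 CPM in 393P_vector and at 11.6, 11.9 and 11.97 CPM in 393P_ZEB1. The 393P_ZEB1 samples agreed within a narrow range and were far above the 393P_vector samples, with means of 2.25 ± 0.868 and 11.8 ± 0.173 CPM, a ratio of 5.26 and a log2 fold change of 2.39 (SE 0.28). More than 10 reads fell on 1, 1 and 3 exons in 393P_vector and on 7, 11 and 10 exons in 393P_ZEB1. Osmr, the oncostatin M receptor (chromosome 15, minus strand, 6813577 to 6874313), was scarce in both groups, with 26, 12 and 29 counts in 393P_vector and 36, 41 and 39 in 393P_ZEB1. Its levels of 0.459, 0.204 and 0.349 CPM against 0.673, 0.738 and 0.639 CPM did not overlap, with a log2 fold change of 1.01 (SE 0.32).

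Il6st, which encodes the shared subunit gp130 (chromosome 13, plus strand, 112464070 to 112506860), was the most abundant receptor per length in both groups. It was at 106, 99.5 and 96.1 CPM in 393P_vector and at 71.8, 69.2 and 67.2 CPM in 393P_ZEB1. The groups were well apart, with a log2 fold change of -0.54 (SE 0.10). The shared subunit was thus lower in the same samples in which the partner subunits Lifr, Il11ra1 and Osmr were higher.

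Socs3, the inhibitor that binds gp130 and JAK kinases (chromosome 11, minus strand, 117966087 to 117969366), was at 33.1, 32.4 and 29.6 CPM in 393P_vector and at 26.5, 24.5 and 26.7 CPM in 393P_ZEB1. Its groups did not overlap, with 393P_ZEB1 the lower, but the log2 fold change of -0.29 (SE 0.11) was not called. It was called, at -0.34, without 393P_vector replicate 3, and with all samples by the Wald test of DESeq2, at -0.29, and by limma's voom, at -0.35.

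**Figure D3:**
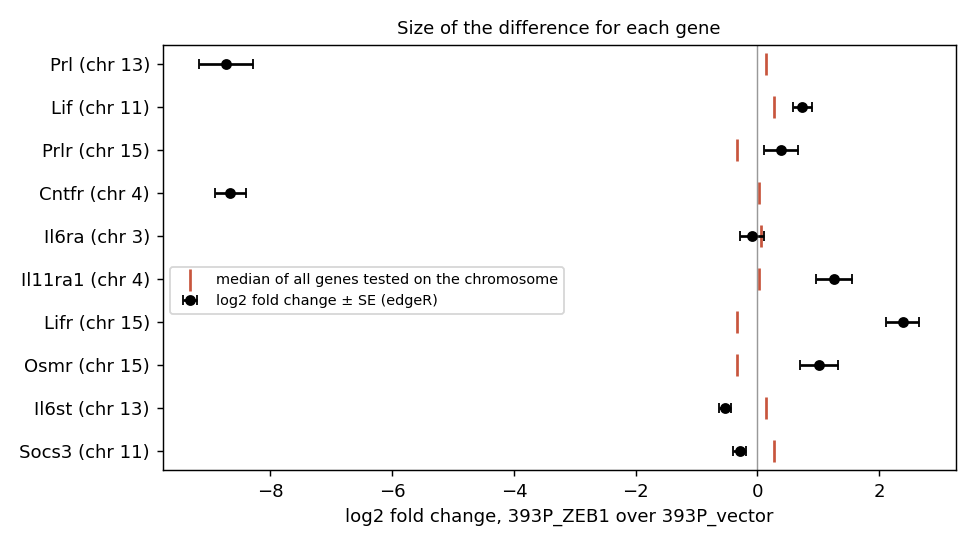
Log2 fold change of 393P_ZEB1 over 393P_vector for each of the 10 genes, with its standard error as a bar, beside a red mark at the median of all tested genes on its chromosome. Prl and Cntfr lie at -8.73 and -8.66, and the other 8 genes between -0.54 and 2.39.

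Between genes, levels were compared per length, as CPM divided by the exon length in kb. In 393P_vector the order was Prl at 20.7 ± 1.27, Lif at 20.1 ± 3.76 and Il6st at 18.5 ± 0.949, neighbours whose samples overlapped, followed by Socs3 at 11.6 ± 0.689 and Cntfr at 6.69 ± 0.893. Below these came Il11ra1 at 1.34 ± 0.503 and Il6ra at 1.30 ± 0.278, which overlapped, then Lifr at 0.218 ± 0.0842, Osmr at 0.0701 ± 0.0266 and Prlr at 0.0209 ± 0.00225. Prolactin mRNA was thus among the top ranks of the 10 per length in these cells, and the mRNA of its receptor was last.

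In 393P_ZEB1 the order was headed by Lif at 33.5 ± 1.91, Il6st at 12.8 ± 0.420, Socs3 at 9.52 ± 0.454 and Il11ra1 at 3.18 ± 0.318 CPM per kb. Il6ra at 1.22 ± 0.0943 and Lifr at 1.15 ± 0.0167 overlapped, and Osmr followed at 0.142 ± 0.0105. The last places went to Prl at 0.0485 ± 0.0530, which overlapped Prlr at 0.0274 ± 0.00515, and Cntfr at 0.0157 ± 0.00105. Lifr had thus moved from below Il6ra to a level that overlapped it, whereas Cntfr, its partner for CNTF, had gone from the fifth place to the last.

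Whole chromosomes were shifted in this contrast, so the median of the tested genes is given beside the members. It was 0.27 on the log2 scale on chromosome 11, which holds Lif and Socs3, and -0.33 on chromosome 15, which holds Prlr, Lifr and Osmr. Medians were 0.13 on chromosome 13 (Prl, Il6st), 0.03 on chromosome 4 (Cntfr, Il11ra1) and 0.06 on chromosome 3 (Il6ra), and -0.02 over all genes. Without 393P_vector replicate 3 the medians were 0.24 on chromosome 13 and 0.14 on chromosome 3. The differences of Lif and Il11ra1 were thus in the same direction as the median of their chromosome. Those of Lifr, Osmr, Il6st, Prl and Cntfr were opposite in sign to it. So were those of Prlr, Il6ra and Socs3, which were not called. The part that such chromosome-wide shifts had in any member was not tested.

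Next to the members with the greatest differences, neighbours were read with edgeR's quasi-likelihood test and its Benjamini-Hochberg adjusted p. The nearest tested genes to Prl, all more than 1 Mb away, were Dcdc2a, which fell with a log2 fold change of -2.50 (SE 0.24, adjusted p = 0.000142), Nrsn1, which rose by 1.75 (SE 0.42, adjusted p = 0.0136), 2610307P16Rik at 0.24 and Sox4 at 0.02. Nrsn1 was scarce in both groups, at 0.111 ± 0.0338 CPM in 393P_vector and 0.366 ± 0.136 CPM in 393P_ZEB1. Beside Cntfr, Enho, which encodes the peptide adropin and lies at a distance of -19.4 kb (toward lower coordinates), fell with a log2 fold change of -2.57 (SE 0.45, adjusted p = 0.00343), from 0.533 ± 0.0385 to 0.0899 ± 0.0694 CPM. 2810432D09Rik fell by 0.53 (adjusted p = 0.0111), and Dctn3 and 2310028H24Rik, at 0.15 and 0.21, did not pass the test. The calls of Nrsn1 and 2810432D09Rik ended without 393P_ZEB1 replicate 2 (adjusted p = 0.0511 and 0.0509), and that of 2810432D09Rik also without 393P_vector replicate 1 (0.0524). Of the 25 tested genes within 1 Mb of Cntfr, 1 was called higher and 4 lower, with a median of -0.05. The one called higher was Il11ra1, itself among the 10 genes, 103 kb from Cntfr.

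**Figure D4:**
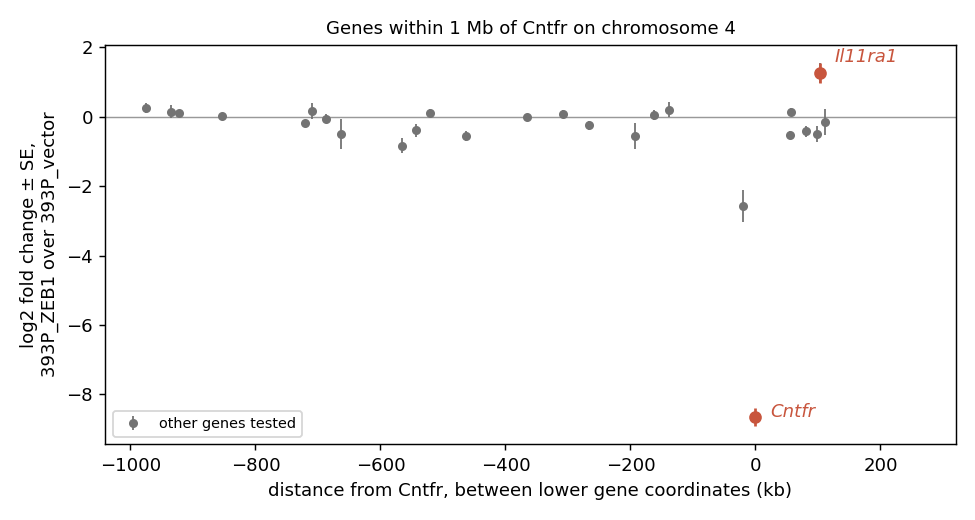
Log2 fold change with its standard error for the tested genes within 1 Mb of Cntfr on chromosome 4, against the distance in kb between the lower coordinates of the genes. Cntfr, at -8.66, and Il11ra1, at 1.26, are in red, and of the other genes in grey only Enho, at -2.57, lies below -1.

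Lifr and Osmr lie 316 kb apart on chromosome 15. Of the 7 tested genes within 1 Mb of Lifr, Dab2, Rictor and Osmr were called higher and Gdnf lower, and the median was 0.31. Blocking on the replicate number ended the calls of Rictor and Gdnf (edgeR adjusted p = 0.0529 and 0.0552), as did that of Rictor without any 1 sample except 393P_vector replicate 3, and that of Gdnf without 393P_vector replicate 1 or any 1 of the 393P_ZEB1 samples. Around Prlr, on the same chromosome, 3 of 7 were higher and 0 lower with a median of 0.50, although the chromosome as a whole had a median of -0.33. These genes were listed by position, after their values had been seen.

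The genes most like Prl and Cntfr were those with the smallest distance between log2 CPM profiles, centred on their mean over the 6 samples. For Prl they were Eif2s3y, a Y-linked translation factor gene (distance 0.873), Esrp1 (1.26) and Nnat (1.29). Nnat was at 18.8 ± 1.05 CPM in 393P_vector and 0.0841 ± 0.0473 CPM in 393P_ZEB1, and Eif2s3y at 35.1 ± 3.52 and 0.0666 ± 0.0435 CPM. For Cntfr they were Esrp1, an epithelial splicing regulator (0.328), Cdcp1 (0.334) and Arhgef16 (0.539). Esrp1 was at 88.0 ± 4.72 CPM in 393P_vector and 0.408 ± 0.0618 CPM in 393P_ZEB1, and Cdcp1 at 93.5 ± 10.1 and 0.329 ± 0.0137 CPM. All of these were high in the 3 samples of one group and low in the 3 of the other, as any gene with so large a difference would be.

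The rest of the pathway was read from lists written by role, which hold no member. The lists were written with earlier results of these data known, so their shares are a description. Of 91 genes, 61 were tested, of which 20 (32.8%) were called higher and 9 (14.8%) lower, beside 18.3% and 19.3% of all tested genes, and their median log2 fold change was 0.11 against -0.02. Adjusted p-values of these genes come from the edgeR quasi-likelihood fit, corrected over all tested genes by the Benjamini-Hochberg method. The largest change was that of Socs2, followed by those of Ctf1, Tnfsf11 and Ptpn6.

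Among 10 further ligands of gp130, 4 were tested, 0 rose and 1 fell, with a median of -0.38. That one was Ctf1, which encodes cardiotrophin-1, a ligand of LIFR and gp130. It went from 2.05 ± 0.480 to 0.210 ± 0.0855 CPM, a log2 fold change of -3.30 (SE 0.35, adjusted p = 0.000273). The ligands of the other receptors above were scarce or did not pass the test. Il6 had 0 to 7 counts and Osm 1 to 3 counts in a sample, while Cntf, at 3.22 CPM in 393P_vector and 2.65 in 393P_ZEB1, and Il11, at 0.625 and 0.845, were tested with adjusted p of 0.229 and 0.215. Clcf1, also in this list and named after its values were seen, was higher in level, at 19.9 CPM in 393P_vector and 14.2 in 393P_ZEB1. Its groups did not overlap, but its log2 fold change of -0.48 (SE 0.20) did not pass the test (adjusted p = 0.0920).

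Of 18 other receptors of this class and their soluble partners, 8 were tested, 4 rose and 1 fell, with a median of 0.44. Ghr, the growth hormone receptor and the closest relative of Prlr in the list, rose from 25.7 ± 3.75 to 61.0 ± 8.52 CPM (log2 fold change 1.25, SE 0.15, adjusted p = 0.000577). Il12rb1, a chain of the IL-12 and IL-23 receptors, rose by 1.38 (SE 0.19, adjusted p = 0.000938). Il13ra1, a chain of the IL-13 receptor, fell by 0.98 (SE 0.25, adjusted p = 0.0173). The leptin receptor Lepr, named after its values were seen, rose by 0.50. The call of Il13ra1 ended when any 1 of the 393P_ZEB1 samples was left out, with adjusted p of 0.0567 to 0.0717. That of Lepr ended without any 1 sample except 393P_vector replicate 3, at 0.0744 to 0.0842.

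Of the 4 JAK kinases, 1 rose. Jak3, best known from lymphocytes, went from 20.3 ± 4.44 to 44.8 ± 4.21 CPM (log2 fold change 1.14, SE 0.18, adjusted p = 0.00207). Jak2, the kinase of the prolactin receptor, was at 193 ± 23.9 and 208 ± 10.6 CPM (0.11, adjusted p = 0.492), and was called, at 0.21, without 393P_vector replicate 3 (adjusted p = 0.0396). Jak1 and Tyk2, which serve gp130 receptors, had log2 fold changes of -0.14 and 0.12 with adjusted p of 0.732 and 0.603.

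Of the 6 tested STAT genes, 3 rose and 1 fell. Stat3, the main STAT of gp130, rose from 63.1 ± 7.01 to 89.8 ± 0.827 CPM (log2 fold change 0.51, SE 0.11, adjusted p = 0.00954). Stat5a, which serves the prolactin receptor, rose from 6.88 ± 0.340 to 11.4 ± 1.58 CPM (0.73, SE 0.15, adjusted p = 0.00711). Stat5b rose by 0.34 (adjusted p = 0.0389), a call that ended without any 1 sample except 393P_vector replicate 3, with adjusted p of 0.0555 to 0.128, and was 0.0952 with the replicate number as a block. Stat2, of the interferon pathway, fell by 0.63 (adjusted p = 0.0166), and its call ended without 393P_vector replicate 1 or 2 or without 393P_ZEB1 replicate 1 or 3, with adjusted p of 0.0548 to 0.0666. Stat6 (0.10, adjusted p = 0.527) did not pass the test, and Stat4 was not tested, with 1 to 7 counts in a sample. These are levels of mRNA, and the phosphorylation that activates STAT proteins was not measured.

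Among 14 SOCS genes and other inhibitors, all tested, 6 rose and 1 fell, with a median of 0.17. Socs2, an inhibitor of growth hormone and prolactin receptor signalling, had 102, 125 and 278 counts in 393P_vector and 1911, 1586 and 1651 in 393P_ZEB1. From 2.42 ± 0.815 to 30.4 ± 4.64 CPM, it rose with a log2 fold change of 3.64 (SE 0.26, adjusted p = 2.97e-05), the largest rise in the lists. Pias2, of the family named as inhibitors of STATs, rose by 1.07 (SE 0.13, adjusted p = 0.000572). Ptpn6, which encodes the phosphatase SHP-1, fell from 22.9 ± 0.908 to 3.54 ± 0.576 CPM (log2 fold change -2.69, SE 0.16, adjusted p = 1.11e-05). Cish and Socs1, the closest relatives of Socs2 and Socs3, were at -0.16 and -0.93 with adjusted p of 0.634 and 0.136.

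Of 8 adaptors and receptor sheddases, 2 rose, namely the adaptor Shc1 by 0.79 (SE 0.18, adjusted p = 0.0118) and Adam10, a protease that sheds receptors from the cell surface, by 0.60 (SE 0.16, adjusted p = 0.0188). Both calls ended without 393P_ZEB1 replicate 1, at adjusted p of 0.0530 and 0.0554, and that of Adam10 also without 393P_vector replicate 2 or 393P_ZEB1 replicate 2. Adam17, the main sheddase of IL-6R, was at 0.20 (adjusted p = 0.119, and 0.0460 by limma's voom).

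Genes known to respond to STAT3 went both ways, with 3 higher and 4 lower of 13 tested and a median of 0.07. Icam1, an adhesion molecule, fell by 1.93 (SE 0.15, adjusted p = 4.13e-05) and the kinase gene Pim1 by 1.58 (SE 0.13, adjusted p = 5.10e-05). Cebpd, a transcription factor gene, rose by 1.55 (SE 0.20, adjusted p = 0.000696). The acute phase genes of this list, such as Saa3, Hp and Lcn2, had 0 to 6 counts in a sample and were not tested.

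Of 9 genes known as targets of prolactin and STAT5, 4 were tested, 1 rose and 1 fell. Areg, which encodes the EGFR ligand amphiregulin, rose from 71.6 ± 6.25 to 244 ± 27.4 CPM (log2 fold change 1.77, SE 0.12, adjusted p = 2.73e-05). Tnfsf11, which encodes RANKL and is named here after its values were seen, fell from 17, 13 and 37 counts in 393P_vector to 3, 2 and 1 in 393P_ZEB1 (-3.14, SE 0.52, adjusted p = 0.00262). Milk protein genes were scarce. Csn2 had 0 to 3 counts and Wap 0 to 2 counts in a sample, and neither was tested. Csn3, which encodes kappa-casein, had 11, 8 and 80 counts in 393P_vector and 87, 95 and 61 in 393P_ZEB1, and at 0.194, 0.136 and 0.963 against 1.63, 1.71 and 0.999 CPM the groups did not overlap. Its log2 fold change of 1.67 (SE 0.64) did not pass the test (adjusted p = 0.0785).

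**Figure D5:**
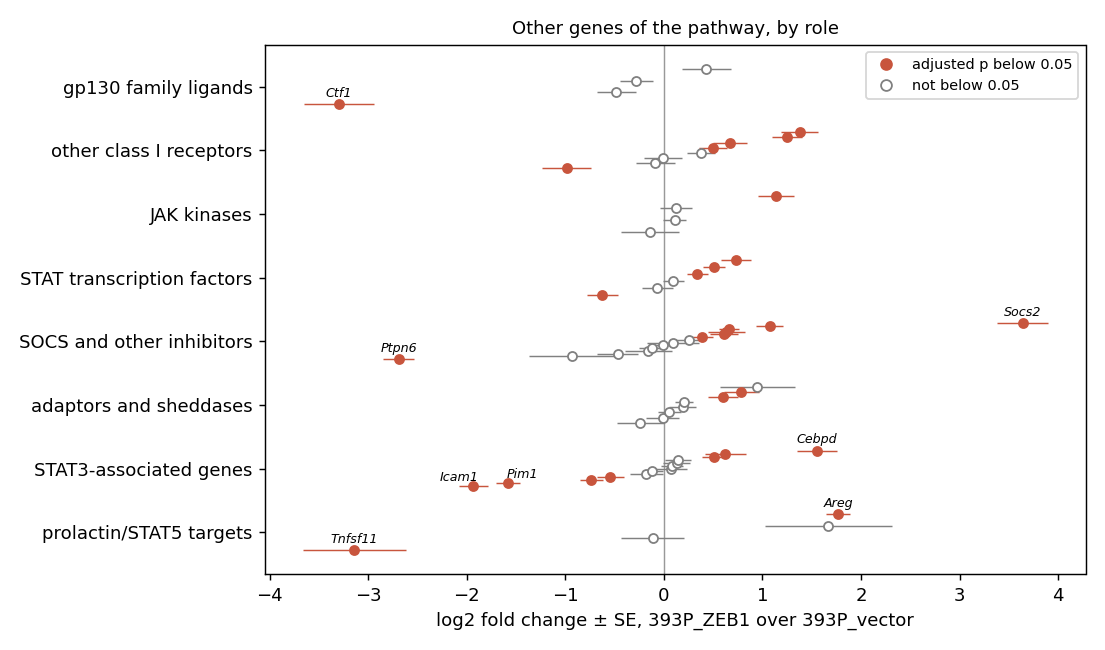
Log2 fold change with its standard error for the 61 tested pathway genes, in 8 rows by role, filled red where the adjusted p was below 0.05 and open grey where it was not. Socs2 lies farthest to the right at 3.64, and Ctf1, Tnfsf11 and Ptpn6 farthest to the left at -3.30, -3.14 and -2.69.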

How the data were processed

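The data were RNA sequencing tables of 6 samples of 393P cells, 3 of 393P_vector and 3 of 393P_ZEB1, grouped by their titles. The authors deposited, per sample, a raw read count for each of the 24214 RefSeq features with its RPKM, exon length and number of exons with more than 10 reads. The deposited RPKM was used only to repeat the order of levels. The aligner, counting program and strand setting are not given in the sources used here, and 1156 features carry a symbol that is repeated or marked as a further copy. The start of Prl in the files equals that of RefSeq on GRCm38, the build taken for all coordinates.

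Counts were fitted with edgeR 4.0.16 in R 4.3.3 (filterByExpr with a minimum count of 10, TMM, robust quasi-likelihood test of condition, Benjamini-Hochberg adjustment, threshold 0.05). The code was checked on simulated counts with few changed genes and the same replicate variability for every gene. That setting is simpler than these data, so the check does not give the error rate here. Log2 CPM for profiles used a prior count of 2. Promoter windows came from RefSeq (GRCm38.p6) and were compared with GENCODE M21. Python 3.11.15, pandas 2.3.3 and matplotlib 3.10.9 were used.

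The members and lists were chosen with earlier results of these data known, and the motifs and the prolactin array after values were seen. Named genes were all members, all tested JAK and STAT genes, and of each pathway list up to 3 genes with the smallest adjusted p among those past the threshold with a mean of at least 1 CPM. To these were added marker genes, and for Prl and Cntfr the 2 nearest tested genes on each side and the 3 with the most similar profile. Other list genes and neighbours named in the text were chosen after their values were seen. Some list genes are not reported here.

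Alternatives were DESeq2's size factors, the Wald test of DESeq2 1.42.0, voom with sample weights in limma 3.58.1, no filter, the replicate number as a block, leaving out each sample, and a fit without the 10 most counted genes. The labels number replicates alike in both groups, without saying that equal numbers share a batch.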

Additional observations from a re-analysis of the deposited data

How the results depend on the processing

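No member that was called changed direction under any alternative run. Of the members' 120 alternative log2 fold changes, 119 moved by less than the spread between replicates, and 1, that of Prl without 393P_ZEB1 replicate 1, moved to -9.90. Of the chromosome medians, 24 alternative values moved by more than the SD between the 393P_ZEB1 samples and 36 by less, all with the sign unchanged. That of chromosome 4 lay between 0.01 and 0.05, and without 393P_vector replicate 3 that of chromosome 3 went from 0.06 to 0.14 and that of chromosome 13 from 0.13 to 0.24. With the replicate number as a block, 2180 genes were called higher and 2256 lower, with 18 and 9 of the pathway lists and 3 and 3 of the members. Deviations of samples with equal numbers correlated at -0.126 to 0.195 and of unequal numbers at -0.120 to 0.157, so the numbers were not taken as pairs. limma's voom with sample weights called 3977 genes higher and 4094 lower, against 2539 and 2679 with edgeR, and the cause was not tested. Leaving out 1 sample at a time gave 1861 to 3700 genes higher and 1784 to 3776 lower over all genes, 12 to 23 higher and 6 to 11 lower in the pathway lists, and 2 to 4 higher and 3 to 4 lower among the members, with the most calls over all genes without 393P_vector replicate 3. The 12 and the 2 were obtained without 393P_ZEB1 replicate 1, and the 1784 without 393P_ZEB1 replicate 3. The log2 fold change of Il6ra lay between -0.25 and 0.06 across these fits. The order of the 10 members per length was the same with the deposited RPKM. Samples with 0 to 5 counts of Prl or 2 of Cntfr limit how exactly their ratios can be given.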
